A study of Homo sapiens with 4 samples.

Results

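The mitosis and spindle genes examined here are 42 genes that drive entry into mitosis, build the spindle, guard chromosome attachment and split the cell. They were picked by gene symbol from a written list of functions, drawn up with earlier results of these data known though by no threshold on them, and all 42 were found among the 23228 genes of the count tables. ES2 cells, a long-established line from a human ovarian cancer, were used throughout. Cells were kept in phenol red–free RPMI-1640 with 5% charcoal-treated serum, a medium poor in steroid hormones, and received vehicle or 100 μM liquiritigenin (Liq), a plant flavanone used in the study as an estrogen receptor β agonist, for 24 h. The dose and the details of the serum are those of the study's methods and labels. Both groups share the cell line, the medium and the time, and each holds 2 samples. The labels do not say whether the 2 samples of a group came from separate cultures, so the p-values below measure the spread between these samples, which may be technical.

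Cells enter mitosis when CDK1, bound to cyclin B, is switched on by CDC25 phosphatases. Polo and Aurora kinases then separate the spindle poles, kinesin motors move the chromosomes, and the spindle checkpoint holds back the anaphase promoting complex until every kinetochore is attached. Once the checkpoint is satisfied, the complex with its activator CDC20 and the enzyme UBE2C destroys securin (PTTG1) and cyclin B, separase (ESPL1) cuts cohesin, and ANLN and ECT2 organise the cleavage furrow. Transcripts of most of these genes climb in G2 and M, so in bulk RNA their level depends both on how many cells are in those phases and on how much RNA each such cell holds, which cannot be told apart here.

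A classic feature of such genes is a short promoter element, the cell cycle genes homology region (CHR, searched here as TTTGAA), often found with CCAAT boxes that bind NF-Y. The stretches below lie just before the RefSeq transcription start on GRCh38.p14 and are shown because they belong to the 4 members with the smallest p-values among those with a TTTGAA upstream. Capitals mark TTTGAA and CCAAT on either strand. The only TTTGAA found for CDK1 lies at -161 from the start, outside the last 100 bases. Those of KIF18A (-10), PLK1 (-29) and HMMR lie within the last 100 bases. Whether any of these works as a CHR was not tested. For PLK1 and HMMR only the bases around the element are given, and for KIF18A only those nearest the start.
CDK1, chr10:60778081-60778330, plus strand: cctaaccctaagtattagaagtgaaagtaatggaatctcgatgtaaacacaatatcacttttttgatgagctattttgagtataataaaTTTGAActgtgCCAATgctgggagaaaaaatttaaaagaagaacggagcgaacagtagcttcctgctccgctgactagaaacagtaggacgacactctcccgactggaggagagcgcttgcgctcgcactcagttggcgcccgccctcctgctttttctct
KIF18A, chr11:28108157-28108247, minus strand: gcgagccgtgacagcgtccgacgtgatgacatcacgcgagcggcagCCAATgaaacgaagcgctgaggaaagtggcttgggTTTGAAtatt
PLK1, chr16:23678848-23678877, plus strand: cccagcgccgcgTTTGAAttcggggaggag
HMMR, chr5:163460592-163460621, plus strand: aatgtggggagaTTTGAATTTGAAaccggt

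Of the 42 members, 36 had a promoter in the RefSeq table. BUB3, AURKA and UBE2C, which were lower with Liq, were not among these 36, so the medians below leave them out. Within the 250 bases upstream of the start, 20 of the 36 (55.6%) held TTTGAA, against 13.3% of all 35116 promoters of that length. CCAAT stood in 28 (77.8%), against 32% of all promoters, and 18 (50%) held both, against 4.69%. Bases after the start were not searched, so a member counted as without TTTGAA may hold one there. As a description with no test, the median log2 fold change was -0.052 in the members with TTTGAA and -0.008 in those without it. With only the last 100 bases before the start searched, where 16 of 36 (44.4%) held TTTGAA against 4.61% of all promoters, the medians were -0.024 and -0.021. Of the 4 genes above, CDK1 and PLK1 were lower with Liq, KIF18A was higher, and HMMR had a log2 fold change of 0.20 that did not pass the threshold.

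The libraries held 34573053 to 48933893 reads counted on genes. Members had 794 to 38905 counts in a sample, so every member passed the filter on low counts and counting error is small for all of them. Expression is given below as CPM (a gene's counts scaled to library size after TMM adjustment). A log2 fold change sets Liq against vehicle and comes with a 95% interval from edgeR's quasi-likelihood fit over 13546 tested genes. For 1 gene alone, permuting 2 and 2 samples exactly allows no p-value under 0.3333. Of 13 markers used for ovarian cancer and epithelial cells, VIM, KRT7 and KRT18 were plentiful, whereas MSLN and FOLR1 were at 0 and MUC16, EPCAM and KRT19 had at most 3 counts in any sample. Of 10 leukocyte markers, 4 were at 0 in every sample and 7 had at most 3 counts in each, whereas CD68 had 2538 to 3331 counts. Of the endothelial and other stromal markers, CDH5 (1712 to 2239 counts) and PDGFRA (2724 to 3990 counts) were also well expressed, and the part of these in any result was not tested.

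Liq left the mitotic programme of ES2 cells close to its vehicle level, with a few exceptions of modest size. At an adjusted p-value under 0.05 (Benjamini-Hochberg over all tested genes, edgeR), 5 of the 42 members were lower with Liq, namely CDK1, BUB3, UBE2C, PLK1 and AURKA, and 1 was higher, KIF18A. The lower share, 11.9%, was near the 11.3% of all tested genes called lower and the 13.6% of tested genes of at least 10 CPM, the range in which the members lie. The higher share, 2.38%, stood beside 12.6% of all tested genes and 10.9% of those of at least 10 CPM. None of the members reached a fold change of at least 1.5 with an unadjusted p-value under 0.05, the rule of the study, which 7.85% of all tested genes and 2.63% of those of at least 10 CPM met. At an unadjusted p-value under 0.05 without a fold threshold, 6 members (14.3%) were lower and 4 (9.52%) higher, beside 17.3% and 18.8% of all tested genes. These shares are those of the main fit. With the replicate number as a block, described at the end, 11 of the 42 members were called lower and 4 higher. Of all 13546 tested genes, 2474 were lower and 2321 higher in that fit.

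The members moved little and in both directions. Their median log2 fold change was -0.031, with 26 values below and 16 above 0, beside a median of 0.006 over all tested genes and -0.026 over those of at least 10 CPM. Of the 42 values, 35 were smaller than 0.2 in size and 23 smaller than 0.1. The middle 50% of the members ran from -0.11 to 0.037, and that of tested genes of at least 10 CPM from -0.14 to 0.11. The whole 95% interval lay within 1.5-fold in either direction for 41 members (97.6%), as it did for 74.4% of all tested genes and 92.5% of those of at least 10 CPM. The exception was CDK1. These intervals cover the spread between samples and not the choice of scaling, and the sign of the median depended on that choice. It was 0.047 when libraries were scaled by their totals alone and 0.029 with offsets that follow the expression level.

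**Figure D1:**
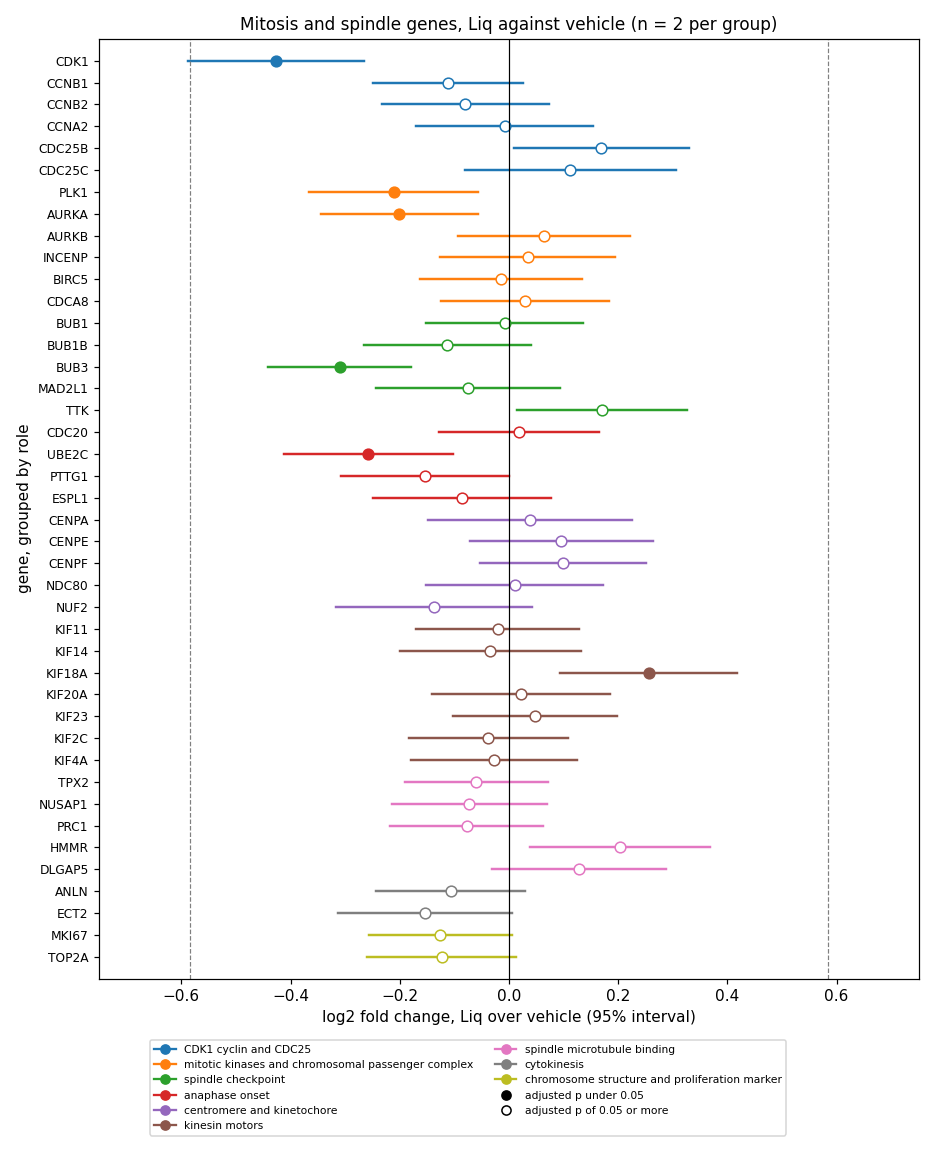
Log2 fold change (Liq over vehicle, x axis) of each of the 42 genes (y axis, coloured by role) with its 95% interval from edgeR, n = 2 per group; filled points have an adjusted p-value under 0.05 and dashed lines mark 1.5-fold. CDK1, at -0.43, lies farthest from 0, and only its interval touches a dashed line.

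CDK1, the kinase at the centre of mitotic entry (chromosome 10 from 62538089 to 62554610, GRCh37), had the smallest p-value. Its expression was 241.1 and 252.1 CPM in the vehicle samples and 165.9 and 200.6 CPM in the Liq samples. Both Liq samples lay below both vehicle samples, and Liq replicate 1 was clearly the lower of them. CDK1 fell by 25.6%, a log2 fold change of -0.43 (95% interval -0.59 to -0.27, adjusted p = 0.0002316 from edgeR). Its call held under all 12 alternatives, with values from -0.57 to -0.30, the lower end being the fit without Liq replicate 2.

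The cyclins that partner CDK1 did not pass the threshold. CCNB1, the main mitotic cyclin, was at 271.0 and 261.7 CPM with vehicle and at 245.1 and 247.9 CPM with Liq, a log2 fold change of -0.11 (95% interval -0.25 to 0.026). CCNB2, its close relative, had one of -0.080 and CCNA2, the cyclin of S and G2 phase, one of -0.008. For CCNB1 and CCNB2 both Liq samples lay below both vehicle samples, whereas those of CCNA2 overlapped. The CDC25 phosphatases, which activate CDK1, had values above 0. CDC25B was at 111.8 and 99.2 CPM with vehicle and at 122.9 and 114.4 CPM with Liq, a log2 fold change of 0.17 (adjusted p = 0.1181 from edgeR), and CDC25C had one of 0.11. CDC25B was called higher under 4 of 12 alternatives, among them library totals alone (adjusted p = 0.02587 from edgeR), loess offsets (0.04206) and the fit without Liq replicate 2 (0.02691).

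BUB3 (chromosome 10 from 124913918 to 124929983, GRCh37) carries the checkpoint kinases to the kinetochore. It was expressed at 495.7 and 508.7 CPM in vehicle and at 396.0 and 414.4 CPM in Liq, so the groups were well apart and the replicates close. The decrease was 19.3%, a log2 fold change of -0.31 (95% interval -0.44 to -0.18, adjusted p = 0.0008126 from edgeR). It held under all 12 alternatives, from -0.34 to -0.22.

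The other checkpoint genes did not follow BUB3. The log2 fold change was -0.008 for the kinase gene BUB1, -0.11 for BUB1B, which encodes BUBR1, and -0.075 for MAD2L1, and the samples of the groups overlapped in all of these. TTK, the checkpoint kinase MPS1, was at 136.7 and 145.3 CPM with vehicle and at 148.9 and 168.1 CPM with Liq. Both its Liq samples were above both vehicle samples, but the log2 fold change of 0.17 did not pass the threshold (adjusted p = 0.1041 from edgeR). TTK was called higher under 4 of 12 alternatives, among them library totals alone (adjusted p = 0.02304 from edgeR), loess offsets (0.02509) and the fit without Liq replicate 1 (0.007629).

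Among the mitotic kinases, PLK1 and AURKA were lower with Liq and AURKB was not called. PLK1, the polo kinase (chromosome 16 from 23688977 to 23701688, GRCh37), was at 156.9 and 144.6 CPM with vehicle and at 136.3 and 124.3 CPM with Liq, a decrease of 13.6% (log2 fold change -0.21, 95% interval -0.37 to -0.056, adjusted p = 0.04205 from edgeR). AURKA, the kinase of the spindle poles (chromosome 20 from 54944445 to 54967393), was at 171.6 and 169.6 CPM with vehicle and at 146.8 and 150.1 CPM with Liq. AURKA fell by 13%, with a log2 fold change of -0.20 (95% interval -0.34 to -0.056, adjusted p = 0.03827 from edgeR). The groups did not overlap for either gene, but both calls lie close to the threshold. That of PLK1 held under 5 of 12 alternatives and was lost without either vehicle replicate (adjusted p = 0.4846 and 0.1214), without Liq replicate 2 (0.1641) in the DESeq2 Wald test (0.05113) and with upper-quartile, total or loess scaling (0.08303, 0.2023 and 0.1622). That of AURKA held under 6 of 12 and was lost without either vehicle replicate (0.3242 and 0.2523) without Liq replicate 1 (0.06823) and with upper-quartile, total or loess scaling (0.06937, 0.1938 and 0.1641).

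AURKB is the catalytic subunit of the chromosomal passenger complex, which corrects faulty attachments. It had a log2 fold change of 0.064, and its partners INCENP, BIRC5 (survivin) and CDCA8 (borealin) had values of 0.034, -0.015 and 0.030. Samples of the groups overlapped for all 4 subunits, and their 95% intervals lay between -0.16 and 0.22.

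Of the genes of anaphase onset, UBE2C was lower with Liq. UBE2C (chromosome 20 from 44441215 to 44445596, GRCh37), the ubiquitin-conjugating enzyme of the anaphase promoting complex, was at 153.3 and 141.8 CPM with vehicle and at 128.8 and 118.1 CPM with Liq. UBE2C fell by 16.4% (log2 fold change -0.26, 95% interval -0.41 to -0.10, adjusted p = 0.01362 from edgeR), and the groups did not overlap. The call held under 7 of 12 alternatives. It was lost without vehicle replicate 1 (adjusted p = 0.3142), without vehicle replicate 2 (0.06073) without Liq replicate 2 (0.05139) and with total or loess scaling (0.08351 and 0.05983). UBE2C has 5 annotated pseudogenes, so part of its reads may have been dropped as aligning to more than 1 place.

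PTTG1, securin, was at 95.6 and 98.5 CPM with vehicle and at 86.2 and 88.1 CPM with Liq. The groups did not overlap, but the log2 fold change of -0.15 did not pass the threshold (adjusted p = 0.1378 from edgeR), and PTTG1 has near-identical copies in PTTG2 and PTTG3P. CDC20, the activator that the checkpoint restrains, had a log2 fold change of 0.018 and ESPL1, separase, one of -0.085.

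KIF18A, a kinesin that damps the movement of chromosomes at the spindle equator (chromosome 11 from 28042166 to 28129703, GRCh37), was the only member called higher. It was at 76.1 and 74.7 CPM with vehicle and at 84.9 and 95.1 CPM with Liq, with both Liq samples above both vehicle samples. KIF18A rose by 19.4% (log2 fold change 0.26, 95% interval 0.094 to 0.42, adjusted p = 0.01907 from edgeR). The call held under 9 of 12 alternatives and was lost without vehicle replicate 1 (adjusted p = 0.174), vehicle replicate 2 (0.2192) or Liq replicate 2 (0.1147).

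The other 6 kinesin genes stayed near their vehicle level, with log2 fold changes from -0.038 for KIF2C, which takes microtubule ends apart, to 0.048 for KIF23, a motor of the central spindle. Those of KIF11, which pushes the poles apart, KIF14, KIF20A and KIF4A lay between these values. Samples of the groups overlapped in all 6. KIF4A shares most of its sequence with the retrocopy KIF4B, so its count is uncertain.

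**Figure D2:**
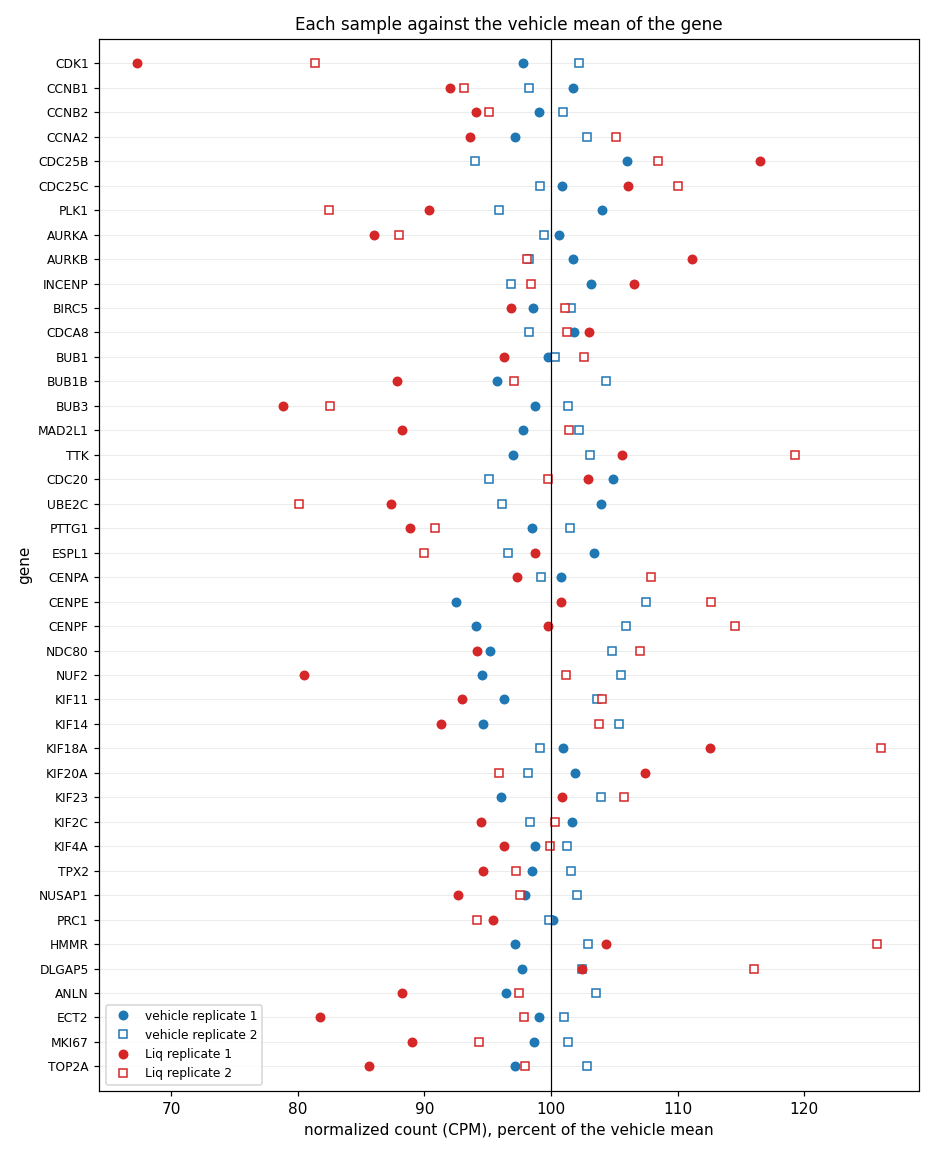
CPM of each sample as a percent of the mean of the vehicle samples of that gene (x axis) for the 42 genes (y axis); blue marks are vehicle and red marks Liq, filled for replicate 1 and open for replicate 2. For CDK1, BUB3, UBE2C, PLK1 and AURKA both red marks lie left of both blue ones, for KIF18A both lie right, and in 23 genes the colours overlap.

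The genes of the centromere and kinetochore gave no call. CENPA, the histone variant that marks centromeres, had a log2 fold change of 0.038, the motor CENPE one of 0.096, and CENPF one of 0.099. CENPF was called higher without Liq replicate 1, as was DLGAP5 of the spindle genes described next. NDC80 and NUF2 encode partner chains of the same microtubule-binding rod, and their values were 0.011 and -0.14. NUF2 had the smallest p-value of these genes, at 132.8 and 148.2 CPM with vehicle and at 113.1 and 142.1 CPM with Liq. Its Liq samples lay far apart and overlapped the vehicle samples (adjusted p = 0.2678 from edgeR). Liq replicate 1 decided this value, since without Liq replicate 2 NUF2 was called lower (-0.31, adjusted p = 0.001042 from edgeR) and without Liq replicate 1 its log2 fold change was 0.016.

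Spindle microtubule-binding genes showed values on both sides of 0. TPX2, which brings AURKA to the spindle, NUSAP1 and PRC1, which bundle microtubules, had log2 fold changes of -0.060, -0.072 and -0.077. HMMR, a spindle pole protein, was at 144.7 and 153.3 CPM with vehicle and at 155.4 and 187.3 CPM with Liq, and DLGAP5, which stabilises kinetochore fibres, had a value of 0.13. Both Liq samples of HMMR were above both vehicle samples, and Liq replicate 2 was well above the other 3 samples. Its log2 fold change of 0.20 (95% interval 0.038 to 0.37) missed the threshold narrowly (adjusted p = 0.06714 from edgeR) and passed it under 6 of 12 alternatives, without Liq replicate 1 among them (0.33, adjusted p = 0.0002622).

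The genes of the cleavage furrow were not called. ECT2, the exchange factor that turns on RhoA at the cell equator, was at 199.8 and 203.8 CPM with vehicle and at 164.9 and 197.4 CPM with Liq, a log2 fold change of -0.15 (adjusted p = 0.1526 from edgeR). The groups did not overlap, but Liq replicate 2 lay just under the vehicle samples, and without it the value was -0.29 (adjusted p = 0.001872 from edgeR). ANLN, the furrow scaffold anillin, had a log2 fold change of -0.11.

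The proliferation marker MKI67, which coats mitotic chromosomes, was at 462.1 and 475.0 CPM with vehicle and at 417.0 and 442.0 CPM with Liq. Its Liq samples lay below the vehicle samples, and the log2 fold change of -0.13 (95% interval -0.26 to 0.006) did not pass the threshold (adjusted p = 0.1598 from edgeR). TOP2A, which untangles sister DNA, was at 768.9 and 814.0 CPM with vehicle and at 677.8 and 775.2 CPM with Liq, and its groups overlapped (log2 fold change -0.12). It was called lower without Liq replicate 2 (-0.22, adjusted p = 0.01415 from edgeR).

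For most members the Liq samples differed from each other by more than the groups did. The median size of the log2 difference was 0.13 between the Liq samples, 0.064 between the vehicle samples and 0.091 between the group means. In 27 of 42 members the Liq samples differed by more than the group means. Single samples vary more than group means, so such a count is high even without any particular trait of the members. In 32 members Liq replicate 2 was the higher Liq sample. The shares of all tested genes for these 2 counts are not given here. Both Liq samples lay below both vehicle samples in 13 members (31%), as in 30.2% of all tested genes, and above both in 6 (14.3%), against 31.5%. Summed over the 42 genes, expression was 7891 and 8125 CPM with vehicle and at 7365 and 7879 CPM with Liq, with Liq replicate 1 lowest and Liq replicate 2 between this and the vehicle samples. The members' median log2 fold change was -0.0029 without Liq replicate 1 and -0.082 without Liq replicate 2. That of tested genes of at least 10 CPM was -0.018 and -0.036 in these fits. Without vehicle replicate 1 the 2 medians were -0.054 and -0.024, and without vehicle replicate 2 they were -0.025 and -0.026.

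Per kilobase of the canonical transcript in GENCODE, the level of the members in vehicle ran from 189.8 CPM per kb for UBE2C to 10.2 CPM per kb for CDC25C. TOP2A, PTTG1, CCNB1 and CDK1 followed UBE2C at 139.0, 135.7, 131.2 and 130.5 CPM per kb. In Liq, CDK1 stood at 97.0 CPM per kb, while CCNB1 was at 121.5 and UBE2C at 158.9. The closeness of CDK1 and CCNB1 in vehicle rests on the canonical lengths, and the transcripts in use were not measured. Before division by length, their vehicle means were 246.6 and 266.3 CPM. BUB3 was at 65.2 CPM per kb in vehicle and 52.6 in Liq.

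Other genes of mitosis, on 7 lists that leave out the 42 members, also moved little and both ways. Of 137 tested genes on these lists, 9 (6.57%) were lower and 12 (8.76%) higher at an adjusted p-value under 0.05, beside the 11.3% and 12.6% of all tested genes, and none met the 1.5-fold rule. Their median log2 fold change was 0.008. The counts fell to 2 lower and 3 higher without vehicle replicate 1 and to 0 and 4 without vehicle replicate 2, and were 16 lower without Liq replicate 2.

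Of 20 regulators of G2/M and E2F transcription, 4 (20%) were lower and 0 higher, and the list median was -0.093. Here and in the lists that follow, the shares to set beside these are again 11.3% lower and 12.6% higher of all tested genes. The lower genes were E2F7, a repressor of E2F targets, at 127.3 ± 3.1 CPM (SD, n = 2) with vehicle and 102.3 ± 1.3 CPM with Liq, E2F3, at 86.2 ± 1.1 and 71.3 ± 3.1 CPM, LIN9, a subunit of the MuvB core that binds the CHR, at 27.6 ± 2.2 and 21.9 ± 3.3 CPM, and NFYA, a subunit of the factor that binds CCAAT, at 136.9 ± 8.2 and 115.1 ± 1.7 CPM. The adjusted p-values of E2F7, E2F3, LIN9 and NFYA were 0.002574, 0.01071, 0.02391 and 0.015 from edgeR. With library totals alone E2F7 stayed called, whereas E2F3, LIN9 and NFYA did not (adjusted p = 0.06311, 0.1006 and 0.09236 from edgeR). NFYA also lost its call with loess offsets (adjusted p = 0.05843 from edgeR). LIN9 lost its call narrowly in the DESeq2 Wald test (adjusted p = 0.05003). Without vehicle replicate 2, which leaves a lone vehicle sample, the calls of E2F7, E2F3, LIN9 and NFYA were all lost. Their log2 fold changes were then -0.29, -0.29, -0.24 and -0.19. FOXM1, the forkhead activator of G2/M genes, was at 202.0 ± 7.7 and 210.0 ± 8.3 CPM (SD, n = 2). MYBL2 was at 54.0 ± 1.4 and 51.0 ± 4.5 CPM (SD, n = 2). The adjusted p-values of FOXM1 and MYBL2 were 0.6081 and 0.5029 from edgeR.

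None of the 8 condensin genes passed the threshold (list median -0.076). The smallest p-values were those of SMC2 and NCAPD2, with log2 fold changes of -0.14 and -0.095. Among 15 cohesin genes, SGOL2, which shields cohesin at centromeres, was higher (log2 fold change 0.32, adjusted p = 0.0133 from edgeR), and STAG2 had a value of -0.18 that did not pass. The 16 tested genes of the anaphase promoting complex and its regulators had 2 (12.5%) called lower, ANAPC13 and the inhibitor gene FBXO5 (EMI1), and 2 (12.5%) called higher, ANAPC16 and ANAPC2. Their log2 fold changes were -0.27, -0.24, 0.31 and 0.31.

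Of 34 other centromere and kinetochore genes, 3 (8.82%) were higher and 3 (8.82%) lower. CENPM and CENPH, of the inner kinetochore, and MIS12 were higher by 0.52, 0.36 and 0.30 on the log2 scale. PMF1, a partner of MIS12, and SKA2 and ZWINT, of the outer kinetochore, had values of -0.34, -0.25 and -0.22. Of 24 other spindle and cytokinesis genes, 4 (16.7%) were higher and 0 lower, namely KIFC2, a motor known mainly from nerve cells, CEP55, which serves the final cut between daughter cells, TACC3 and TROAP, with log2 fold changes of 0.42, 0.25, 0.17 and 0.23. Of 20 other mitotic kinases and regulators, 2 (10%) were higher and 0 lower. These were MASTL, the Greatwall kinase, and GSG2, which encodes haspin, with log2 fold changes of 0.24 and 0.26.

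**Figure D3:**
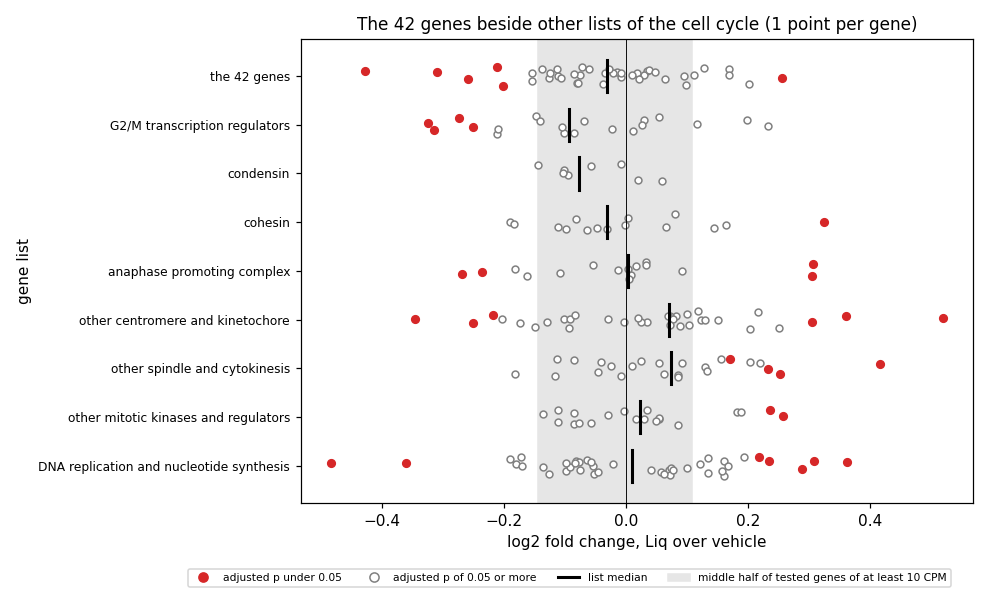
Log2 fold change (Liq over vehicle, x axis) of every tested gene of the 42 members and of 8 other cell cycle lists (y axis), 1 point per gene; red points have an adjusted p-value under 0.05, black bars are list medians and the grey band holds the middle 50% of tested genes of at least 10 CPM. All list medians lie between -0.093 and 0.074, and red points stand on both sides of 0 across the lists.

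The genes of DNA replication and nucleotide synthesis, which act in S phase, gave a like picture with 2 genes (4.76%) lower and 5 (11.9%) higher of 42 and a median of 0.010. The largest decrease was that of RRM2, a subunit of ribonucleotide reductase, 361.4 ± 13.1 CPM with vehicle against 258.6 ± 15.6 CPM with Liq (SD, n = 2) and -0.48 on the log2 scale. CCNE2, a cyclin of the G1/S transition, had one of -0.36. Among the higher genes, TK1, thymidine kinase, was higher by 0.36 on the log2 scale, POLD1 by 0.29, PRIM1 by 0.24 and GINS4 by 0.22. The values of RRM2 and CCNE2 stood on either side of that of CDK1, at -0.43. No member reached the size of the RRM2 decrease, and the difference between the lists was not tested.

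Upper-quartile scaling raised the log2 fold change of all 42 members by 0.027 to 0.028 and library totals alone by 0.077 to 0.078, while offsets along the expression level moved them unequally, by -0.024 to 0.097, with 40 members up and 2 down. Upper-quartile scaling gave 3 members lower and 2 higher, library totals alone gave 2 and 4, and offsets along the expression level gave 2 and 4. CDK1 and BUB3 were the 2 lower members under the last 2 of these. The calls over all 13546 tested genes moved as well, from 1533 lower and 1712 higher under TMM. They were 1225 and 1885 with upper-quartile scaling, 827 and 2529 with library totals alone, and 1352 and 1491 with the offsets. The distance between the members' median and that of all tested genes was -0.037 under TMM, upper-quartile and total scaling and 0.031 with the offsets. The first value had to recur, since those scalings shift genes nearly alike, and it is no check of the result. Beside tested genes of at least 10 CPM, the members' median was -0.031 against -0.026 under TMM. With the offsets it was 0.029 against -0.0044.

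**Figure D4:**
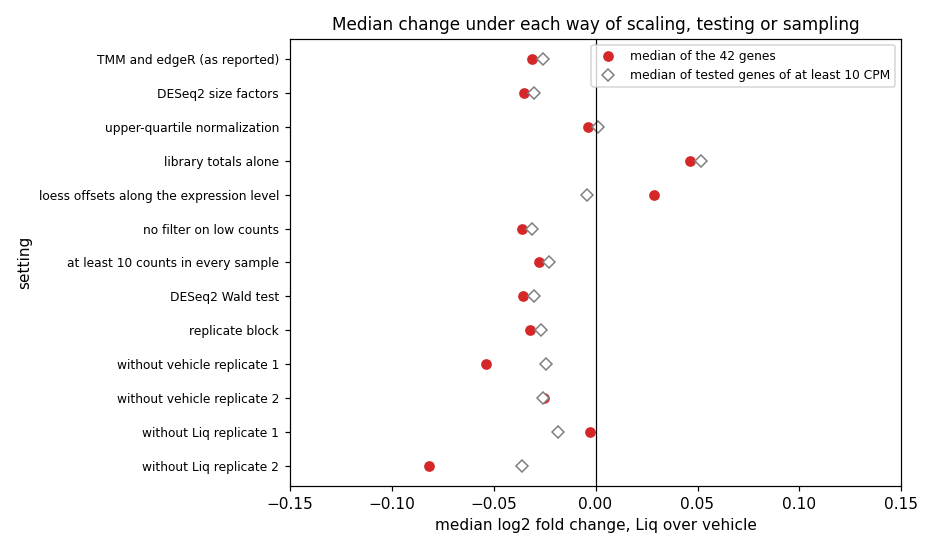
Median log2 fold change (Liq over vehicle, x axis) of the 42 members (red) and of tested genes of at least 10 CPM (grey) under each scaling, filter, test and left-out sample (y axis). The members' median runs from -0.082 without Liq replicate 2 to 0.047 with library totals alone.

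Reads of some members cannot be fully told from those of neighbours or copies. In GENCODE, 7 members share exon sequence with another gene of the tables in their coordinates, namely BUB1B, CCNA2, CDC25C, KIF20A, KIF4A, NUSAP1 and PLK1, and the strand setting of the counting is not given in the sources used here. The shared stretch is 58 bases for PLK1 and up to 352 bases for NUSAP1 and OIP5. The copies KIF4B, PTTG2 and PTTG3P had log2 fold changes of -0.046, -0.060 and -0.16, none of which passed the threshold. Other members also have annotated copies, among them the called genes BUB3 (BUB3P1) and AURKA (AURKAP1 and AURKAP2). These copies were not among the genes counted, and as for UBE2C, part of the reads of BUB3 and AURKA may have been dropped.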

How the data were processed

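RNA from 4 ES2 samples, 2 with vehicle and 2 with Liq, was examined. Per the labels, the authors ran bcl2fastq 2.17.1.14, aligned single-end reads to hg19 (GRCh37) with TopHat2 2.0.8b and used HTSeq for counting. The authors deposited raw read counts, whole numbers per gene symbol with no normalization. HTSeq drops reads that align to several places, and these made up 35.6% to 36.2% of the tallied reads. The tally lines of each table, which name no gene (44.4% to 45.9% of its reads), were left out of library sizes and tests.

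The fit was made by edgeR 4.0.16 under R 4.3.3. The function filterByExpr (minimum count 10, minimum total 15) left 13546 of 23228 genes, and libraries were scaled by TMM. Liq was set against vehicle by glmQLFit and glmQLFTest with all 4 samples and no block, with Benjamini-Hochberg adjustment over all tested genes. Intervals rest on an SE derived from the F statistic and use the moderated degrees of freedom. The common biological coefficient of variation was 0.0575. The DESeq2 1.42.0 Wald test, other scalings, other filters, the replicate block and the fits without each sample were alternatives. The main fit, the replicate block, the loess offsets and the DESeq2 Wald test were also run on simulated counts, with outcomes not given here. The other alternatives were not run on simulated counts.

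The members, the other lists and the tests were chosen with earlier results of these data known. Members given sample by sample were the 10 with the smallest p-value, the smallest in each role, and MKI67, CDK1 and BUB3. CCNB1 and TOP2A were added after their values were seen. Each other list names its 2 smallest p-values, FOXM1 and MYBL2, and in addition other genes called, chosen after their values were seen. Some single-gene results are not reported here. Transcript lengths and gene coordinates come from GENCODE v44 lifted to GRCh37, and promoters from RefSeq on GRCh38.p14.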

Additional observations from a re-analysis of the deposited data

How the results depend on the processing

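The decreases of CDK1 and BUB3 kept their direction and call under all 12 alternatives, and no member met the 1.5-fold rule under any of them. Of 504 member values under the alternatives, 408 kept direction and call, 21 lost a call, 25 gained one and 50 changed sign, all of the last in 21 members that were not called and with a size of at most 0.086. The number of members lower and higher was 5 and 1 as reported, 3 and 2 with upper-quartile scaling, 2 and 4 with library totals alone, 2 and 4 with loess offsets, and 2 were higher with no filter. It ranged from 2 to 6 and from 0 to 5 without each sample. The median over the members was 0.047 with library totals, 0.029 with loess offsets and -0.082 to -0.0029 without each sample. The 7 mitosis lists had 9 lower and 12 higher genes as reported, 1 and 22 with library totals, 5 lower with loess offsets, and 0 to 16 and 3 to 13 without each sample. Over all tested genes, 1533 were lower and 1712 higher as reported, 827 lower with library totals, 1087 higher in the DESeq2 Wald test, and 608 to 1814 and 805 to 1966 without each sample. A fit without 1 sample leaves a group with a lone sample, assumed to vary like the other group. The cause of the changes was not tested beyond the loss of a sample. Alternatives for the other lists and for all tested genes were chosen after seeing the data.

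With the replicate number as a block, 11 members were lower and 4 higher, as were 17 and 21 genes of the 7 lists and 2474 and 2321 of all tested genes. The calls it added were PTTG1, NUF2, ECT2, ANLN, MKI67 and TOP2A, called lower with adjusted p-values of 0.02239, 0.03801, 0.02949, 0.04501, 0.02408 and 0.02358 from edgeR, and CDC25B, TTK and HMMR, called higher (0.01177, 0.01159 and 0.007588). The numbers are those of the sample titles. The names of the deposited Liq files carry other numbers, and no label says what a number shares, so the samples were not treated as paired. Same-numbered samples deviated from the group mean with a correlation of 0.068 over all tested genes and 0.77 over the 42 members, with 26 members higher and 10 lower in replicate 2 of both groups. Genes are not independent replicates.

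Signs of uncalled members, and of MYBL2 from the list of G2/M regulators, turned as follows. With library totals alone the log2 fold change was 0.070 for CCNA2, 0.063 for BIRC5, 0.070 for BUB1, 0.0027 for MAD2L1, 0.057 for KIF11, 0.043 for KIF14, 0.040 for KIF2C, 0.050 for KIF4A, 0.018 for TPX2, 0.0052 for NUSAP1 and 0.00043 for PRC1. With loess offsets it was 0.035 for CCNA2, 0.045 for BIRC5, 0.062 for BUB1, 0.056 for KIF11, 0.017 for KIF14, 0.030 for KIF2C, 0.023 for KIF4A, 0.027 for TPX2 and 0.0045 for NUSAP1. With upper-quartile scaling it was 0.019 for CCNA2, 0.013 for BIRC5, 0.019 for BUB1, 0.0063 for KIF11 and 0.00017 for KIF4A. Without each sample in turn it ran from -0.096 to 0.072 for CCNA2, -0.029 to 0.15 for AURKB, -0.024 to 0.090 for INCENP, -0.047 to 0.015 for BIRC5, -0.056 to 0.036 for BUB1, -0.18 to 0.019 for MAD2L1, -0.052 to 0.091 for CDC20, -0.041 to 0.11 for CENPA, -0.0098 to 0.21 for CENPE, -0.0047 to 0.19 for CENPF, -0.086 to 0.098 for NDC80, -0.31 to 0.016 for NUF2, -0.11 to 0.056 for KIF11, -0.13 to 0.053 for KIF14, -0.062 to 0.10 for KIF20A, -0.0087 to 0.11 for KIF23, -0.083 to 0.0037 for KIF2C and -0.18 to 0.0038 for MYBL2.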
